A study of Mus musculus with 11 samples.

Results

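The genes described here make, phosphorylate, reduce or consume NAD, and they were followed in the cerebrum of the Polg mutator mouse. They are Nampt, Nmnat1, Nmnat2, Nmnat3, Nadk, Bst1, Cd38, Sarm1, Sirt3 and Nnt, found by symbol in the deposited table of gene counts, and they are 10 of the 36666 genes listed there. All 10 passed the filter on low counts. They were selected on the difference between mutators and controls in these same samples, with the change of Bst1 already known. Their values in that comparison are therefore given as a description, and nothing is concluded from whether a member was called.

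Poly(A)+ RNA was sequenced from the cerebrum of 11 male C57/Bl6 mice aged 1 year. The 7 mutators were D257A/D257A, homozygous for a knock-in allele of Polg, the mitochondrial DNA polymerase, that lacks proofreading activity in every cell of the animal. The 4 controls were littermates, namely 3 WT/WT mice and a single WT/D257A mouse, so that the control group held 1 carrier of the allele. The mice came from heterozygous parents. The study asked how far the proteins of brain mitochondria, nuclear-encoded ones among them, differ in these mice, and whether the mRNAs differ too.

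NAD is the coenzyme that carries electrons from nutrients to complex I of the respiratory chain, and it is also a substrate that is used up by several enzyme families. In most tissues it is rebuilt from nicotinamide by NAMPT and then by the NMNAT enzymes, and NAD kinase turns part of it into NADP. CD38, its relative BST1 (also called CD157), SARM1, the sirtuins and the PARP enzymes cleave it, and CD38 and BST1 can form cyclic ADP-ribose (cADPR), a messenger that releases calcium through ryanodine receptors.

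The libraries held between 28249345 and 121182250 gene counts (control median 52981946, n = 4; mutator median 55741011, n = 7). Mutator mouse 248 stood apart in the ratio of counts to reads. Its 91219204 gene counts lay within the range of the other libraries but came to 3.00 per aligned read listed by the authors, against 0.744 to 0.775 in the other 10 mice. Its listed share of aligned reads was also the lowest, 76.3% against 88.3% to 94.1%. The fold changes of the members and of the genes called among the other NAD genes and the neighbours are therefore also given without this mouse. The libraries carried the markers of cerebral tissue, with Snap25 of neurons at 2205 and 2164 CPM in controls and mutators, Slc1a2 of astrocytes at 2922 and 2668 CPM, and Mbp of oligodendrocytes at 2869 and 3134 CPM. CPM are read counts scaled to a common library size after TMM normalization.

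Bst1 was the member with the largest difference, and it was scarce in every library. BST1 is a cell-surface enzyme anchored by a lipid, first known from bone marrow stromal cells. In the 3 WT/WT controls it stood at 0.270, 0.208 and 0.254 CPM, from 33, 13 and 7 counts, and in the WT/D257A control at 0.115 CPM, from 5 counts. In the 7 mutators it ranged from 0.417 to 0.921 CPM with a median of 0.656, from 24 to 68 counts. The lowest mutator lay above the highest control, and the carrier of 1 allele was the lowest of all mice. The means were 0.212 ± 0.0697 CPM (SD, n = 4) in controls and 0.665 ± 0.159 CPM (SD, n = 7) in mutators, a log2 fold change of 1.60 (SE 0.297) or 3.03-fold. In bulk tissue, fewer cells of a type and less RNA per cell cannot be told apart, and this holds for every gene below. Without mutator mouse 248 the log2 fold change of Bst1 was 1.57, and over each mouse left out in turn it lay between 1.43 and 1.80. The lowest of these values came without the WT/D257A control, and there Bst1 was no longer among the genes called.

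Cd38 moved the same way by a smaller amount. CD38 is a membrane enzyme and a main NAD hydrolase of many tissues, and its gene lies next to Bst1. The WT/WT controls held 5.79, 5.53 and 5.02 CPM and the WT/D257A control 5.34 CPM. The mutators ranged from 6.17 to 9.36 CPM with a median of 6.62. Here too the groups did not overlap, and mutator mice 217 and 236, at 9.36 and 8.79 CPM, stood above the other mutators. The means were 5.42 ± 0.324 CPM (SD, n = 4) and 7.27 ± 1.29 CPM (SD, n = 7), a log2 fold change of 0.42 (SE 0.117). It was 0.42 without mouse 248 and 0.35 without mouse 217.

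The enzymes that build NAD differed little between the genotypes. Nampt, which makes nicotinamide mononucleotide and sets the pace of the salvage route, ranged from 51.6 to 64.4 CPM in controls and from 60.2 to 68.8 CPM in mutators, with a log2 fold change of 0.14 (SE 0.0575). The lowest mouse was again the WT/D257A control, and without it the log2 fold change was 0.079. Nmnat2, which encodes the enzyme of axons and the Golgi, stood at 219 ± 6.44 CPM (SD, n = 4) in controls and 224 ± 9.04 CPM (SD, n = 7) in mutators. Nmnat1, the nuclear enzyme, ranged from 5.16 to 5.96 CPM in controls and from 4.60 to 6.16 CPM in mutators. Nmnat3, the mitochondrial enzyme, ranged from 2.98 to 3.40 CPM in controls. In mutators Nmnat3 lay at 3.70 CPM in mouse 207 and 3.57 CPM in mouse 217, and between 2.40 and 2.73 CPM in the others. Its values thus fell on both sides of the controls. Nadk, the cytosolic kinase that makes NADP, was at 63.7 ± 2.33 CPM (SD, n = 4) and 63.4 ± 3.16 CPM (SD, n = 7). The groups overlapped for each of these 5 genes. With all mice the log2 fold changes were -0.052 for Nmnat1, 0.037 for Nmnat2 and -0.13 for Nmnat3. Over the mice left out in turn, Nmnat1 lay between -0.087 and -0.015 and Nmnat2 between 0.021 and 0.057. Nmnat3 lay between -0.19 and -0.087. Without mouse 248 the log2 fold changes were 0.12 for Nampt, -0.057 for Nmnat1, 0.050 for Nmnat2, -0.098 for Nmnat3 and 0.0040 for Nadk. The value of Nadk was -0.0073 with all mice, so its sign turned.

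The remaining members use NAD or pass its electrons on. Sarm1, an NAD-cleaving enzyme that drives axon degeneration, ranged from 30.7 to 34.0 CPM in controls and from 28.0 to 35.7 CPM in mutators. Sirt3, the main protein deacetylase of mitochondria, stood at 53.6 ± 3.96 CPM (SD, n = 4) in controls and 49.5 ± 2.44 CPM (SD, n = 7) in mutators. Nnt, which moves hydride from NADH to NADP at the inner mitochondrial membrane, ranged from 19.7 to 24.6 CPM in controls, with the WT/D257A mouse highest. In mutators Nnt was 15.8 CPM in mouse 207 and between 19.6 and 22.04 CPM in the other mice. For these 3 genes the groups overlapped, and the log2 fold changes were -0.06 (SE 0.0599) for Sarm1, -0.11 (SE 0.0542) for Sirt3 and -0.11 (SE 0.0798) for Nnt. Without mouse 248 they were -0.036, -0.092 and -0.12.

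**Figure D1:**
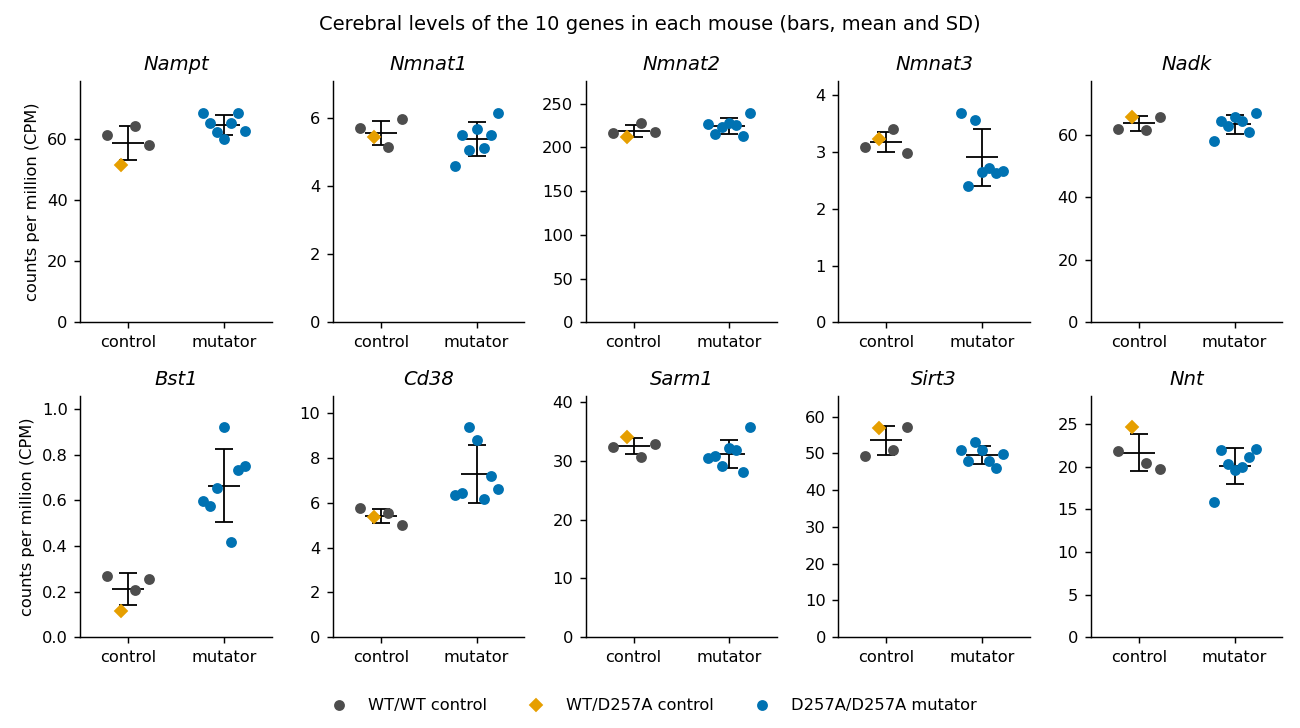
Level of each gene in CPM (vertical axes, from 0) in 4 controls and 7 mutators. Each point is a mouse, the crossbars are the mean and the SD. Controls and mutators are apart for Bst1 and Cd38 and overlap for the other 8 genes.

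Across all genes, the quasi-likelihood test of edgeR, adjusted by the Benjamini-Hochberg method, called 0.439% of the 17983 genes tested higher in mutators and 0.801% lower, at an adjusted p threshold of 0.05. This split of 79 higher and 144 lower became 24 and 26 without the WT/D257A control and 50 and 43 without WT/WT mouse 246. Of the 10 members, Bst1 was among the genes called higher, and none was among those called lower. Cd38 was not called in this fit, nor with any single mouse left out. Of 15 alternatives, 2 called it, namely DESeq2 and edgeR without a filter on low counts. DESeq2 called 615 of 17202 genes, and edgeR without the filter called 346 of 28103. Every mutator lay above every control in 1.2% of all genes tested and below every control in 1.42%, and among the members this held for Bst1 and Cd38, both above. Since the members were selected on this contrast, nothing is read from these counts. The other 8 members had log2 fold changes between -0.13 and 0.14. The median over the 10 members was -0.030, beside 0.0014 over all genes tested.

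The 10 genes differed far more from each other than between genotypes. To compare genes, CPM were divided by the length of the longest coding transcript in kb. Per length, Nmnat2 was the most abundant at 49.2 ± 1.84 CPM per kb (SD, n = 11), followed by Sirt3 at 34.9 ± 2.42, Nadk at 20.2 ± 0.876 and Nampt at 13.8 ± 1.08 CPM per kb. For each of these 4 genes the lowest mouse lay above the highest mouse of the next gene. Sarm1 at 6.50 ± 0.442, Nnt at 4.97 ± 0.519 and Nmnat1 at 3.95 ± 0.321 CPM per kb came next, and there Sarm1 overlapped Nnt and Nnt overlapped Nmnat1. Cd38 at 2.19 ± 0.457 CPM per kb lay below Nmnat1 without overlap and overlapped Nmnat3 at 1.40 ± 0.199 CPM per kb. Bst1 was lowest, at 0.236 ± 0.124 CPM per kb (SD, n = 11). With the length of all annotated exons in place of the longest transcript, Cd38 came before Nmnat1 and the rest of the order held.

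Among the 3 Nmnat genes, that of the axonal enzyme gave the most abundant transcript. Per length, Nmnat2 exceeded Nmnat1 between 11.2-fold and 15.03-fold and Nmnat3 between 29.2-fold and 42.8-fold in single mice. Of the pair of ADP-ribosyl cyclases, Cd38 exceeded Bst1 in each mouse, between 13.8-fold and 32.6-fold in controls and between 6.17-fold and 10.4-fold in mutators. Bst1 in mutators thus remained below Cd38 in controls on the per-length scale, at 0.314 ± 0.0751 (SD, n = 7) against 1.80 ± 0.108 CPM per kb (SD, n = 4).

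**Figure D2:**
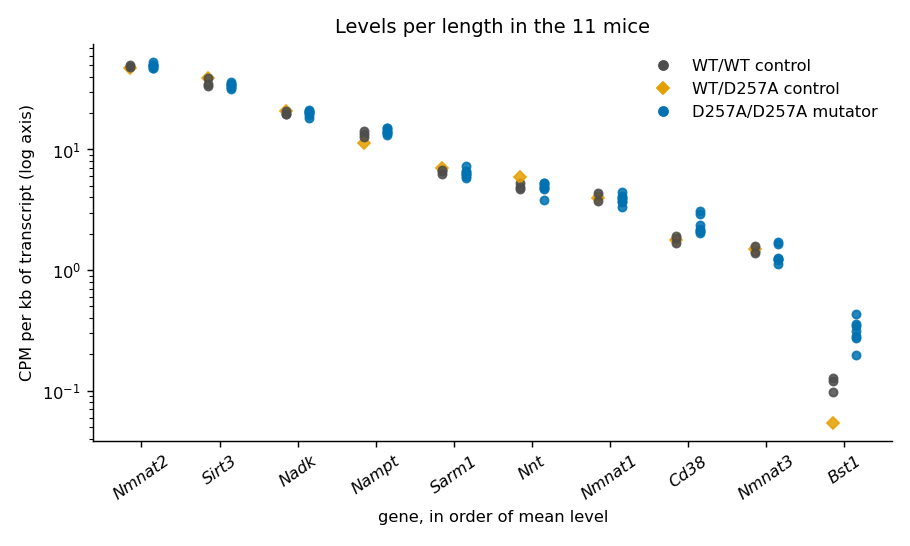
CPM per kb of transcript (vertical log axis) of the 10 genes in order of their mean, with each of the 11 mice as a point, controls left and mutators right. Nmnat2 is the highest at 49.2 CPM per kb on average and Bst1 the lowest at 0.236.

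Bst1 and Cd38 are neighbours on the same strand of chromosome 5 in mm9, Bst1 at chr5:44210125-44234510 and Cd38 at chr5:44260048-44303614, with 25537 bases between them. Their coding sequences of 936 and 915 bases, taken from GENCODE M1, were identical at 61.7% of 818 aligned positions. The longest run they share is shown since it bears on whether a read of 100 bases could come from either gene. It has 12 bases, in capitals, in the coding part of exon 1 of each gene (chr5:44210276-44210305 and chr5:44260297-44260326 with the flanks, plus strand):
Bst1: cctccagagCATCTTCCTGGGccgctgcgc
Cd38: cttttctgaCATCTTCCTGGGacgctgcct
Within the coding sequences, the longest shared run is thus far shorter than a read. The untranslated parts of the transcripts were not compared, and whether reads of one gene were counted for the other was not tested.

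Bst1 overlaps another gene, and the library kit did not mark the strand. An exon of an alternative transcript of Fbxl5, a subunit of a ubiquitin ligase, reaches into exon 3 of Bst1 from the opposite strand. In the deposited exon counts, which hold 3 WT/WT controls and 7 mutators but no WT/D257A mouse, 2 of the 14 Bst1 bins touch that exon, and they held between 0 and 4 counts per mouse. A bin is a stretch of exon cut at every exon border of any transcript. The other 12 bins held between 0.122 and 0.283 CPM in the 3 WT/WT mice and between 0.409 and 1.143 CPM in the 7 mutators. Their log2 ratio of means was 1.80, and edgeR's log2 fold change for the whole gene over the same 10 mice was 1.43. They are different measures and come from the same reads. Bst1 was selected on these reads, so nothing is concluded from the difference in the 12 bins. This region was chosen after the data were seen. Other members also overlap annotated genes, namely Cd38 (Gm16014 and Gm16015), Nampt (Gdap10), Nmnat1 (Gm13097) and Sirt3 (Ric8 and Psmd13), and the part of those genes in their counts was not tested.

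The genes around the pair were looked at next, since they were not among those selected. Of the 3 genes with counts on each side, 5 could be tested and 1 was called, higher, beside 0.439% called higher and 0.801% lower over all genes. C1qtnf7, Cc2d2a and Fbxl5, on the Bst1 side, had log2 fold changes of -0.26, 0.02 and 0.04, with edgeR adjusted p of 0.605, 0.909 and 0.735. The value of C1qtnf7 lay between -0.42 and -0.15 over the mice left out in turn. Gm5292, on the Cd38 side, held 3 counts over all mice and was not tested. Fgfbp1, which encodes a carrier of fibroblast growth factors, differed by 0.15 on the log2 scale (edgeR adjusted p = 0.744), and by 0.053 to 0.26 over the mice left out. Prom1, which encodes the membrane protein prominin-1, has its first base 175 kb from that of Bst1 and was higher in mutators. It stood at 12.2, 12.03 and 11.6 CPM in the WT/WT controls and 13.1 CPM in the WT/D257A control. In mutators Prom1 ranged from 12.8 to 18.3 CPM with a median of 15.8. Mutator mouse 207, at 12.8 CPM, lay below the WT/D257A control, and the other 6 mutators lay above all controls. The log2 fold change was 0.38 (SE 0.0817, edgeR adjusted p = 0.0255). It was 0.34 without mouse 248 (edgeR adjusted p = 0.0462), and the call was lost without the WT/D257A control (0.41, edgeR adjusted p = 0.0633). It was also lost without WT/WT mouse 239, WT/WT mouse 246 or mutator mouse 211, with edgeR adjusted p of 0.0780, 0.0853 and 0.0549.

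**Figure D3:**
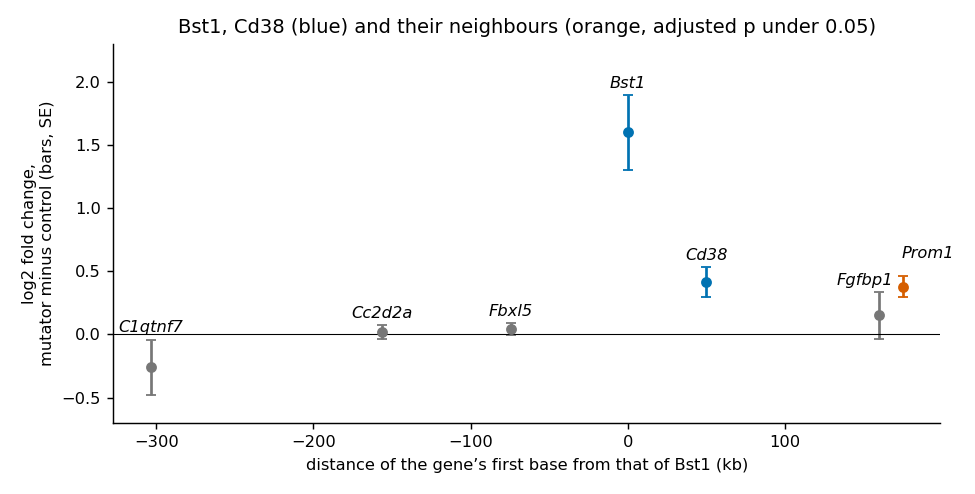
Log2 fold change, mutator minus control, with SE (vertical axis) of Bst1, Cd38 and the 5 tested neighbours against the distance of their first base from that of Bst1 in kb. Bst1 stands at 1.60, Cd38 at 0.42 and Prom1 at 0.38, and the 3 genes on the far side of Bst1 lie between -0.26 and 0.04.

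Other genes of NAD metabolism were then counted, from 7 lists that leave out the members. Of 65 genes, 63 were found, 57 passed the filter and 1 was called, Ryr1, which is 1.75% of those tested, beside 0.439% called higher and 0.801% called lower over all genes. At an unadjusted p below 0.05, 9 of the 57 passed, where 15.8% of all genes tested did (2834 of 17983), and DESeq2 also called 1. Of the 57, 33 had a positive log2 fold change and 24 a negative one, with a median of 0.020.

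Ryr1 was lower in mutators. It encodes the ryanodine receptor best known from skeletal muscle, a calcium release channel, and it was listed with the channels that respond to cADPR or ADP-ribose. The WT/WT controls held 36.8, 38.8 and 35.4 CPM and the WT/D257A control 48.3 CPM. The mutators ranged from 26.8 to 34.6 CPM with a median of 29.1. The highest mutator lay just below the lowest control, and the carrier of 1 allele stood well above the other controls. Ryr1 fell by 0.39 on the log2 scale (SE 0.0836, edgeR adjusted p = 0.0297). Without the WT/D257A control the log2 fold change was -0.28 and the call was lost (edgeR adjusted p = 0.150). Without mouse 248 it was -0.40 (edgeR adjusted p = 0.0554), and the call was also lost without each of 3 other mice (WT/WT mouse 239 and mutators 236 and 240). The other channels of the list were not called: Ryr2 was at 321 and 322 CPM, Ryr3 at 94.6 and 98.1 CPM and Trpm2 at 54.1 and 51.2 CPM in controls and mutators.

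In the synthesis lists no gene was called by edgeR. De novo synthesis from tryptophan had 8 tested genes, of which 4 had positive and 4 negative log2 fold changes, and 0 passed an unadjusted p of 0.05. The lowest p belonged to Haao, which makes quinolinate (0.172 and 0.259 CPM in controls and mutators, edgeR adjusted p = 0.455). The genes of the route were scarce, and the most abundant, Afmid, averaged 3.63 CPM over the 11 mice. Salvage and nucleotide handling had 12 tested genes, 6 with positive and 6 with negative values, and 1 at an unadjusted p below 0.05. That gene was Nt5e, the surface enzyme that removes phosphate from extracellular nucleotides, with 7.34 ± 0.480 CPM (SD, n = 4) in controls and 8.59 ± 1.29 CPM (SD, n = 7) in mutators (edgeR adjusted p = 0.297). The most abundant gene was Mcart1 (now Slc25a51), the mitochondrial NAD carrier, at 116 and 119 CPM.

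The lists of NAD-consuming enzymes outside the members held no called gene by edgeR. Of the 6 other sirtuins, 5 had negative log2 fold changes and 1 passed an unadjusted p of 0.05. This was Sirt7, a nucleolar deacetylase, which ranged from 33.2 to 35.3 CPM in controls and from 30.2 to 33.2 CPM in mutators (log2 fold change -0.11, edgeR adjusted p = 0.266). Of 15 genes of the PARP family, which attach ADP-ribose to proteins, 12 had positive values and 5 passed an unadjusted p of 0.05, beside 15.8% of all genes, with a list median of 0.054. Of these 5, Parp6 had a negative value (-0.10) and the other 4 positive ones. The lowest p was that of Parp9, an interferon-inducible member, at 3.51 ± 0.469 CPM (SD, n = 4) in controls and 4.41 ± 0.446 CPM (SD, n = 7) in mutators (log2 fold change 0.32, edgeR adjusted p = 0.171). Parp1, the main enzyme of the response to DNA breaks, was at 83.0 and 80.9 CPM. It was named for its role after its values were seen.

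Among ADP-ribosyltransferases and enzymes that remove ADP-ribose, 6 genes were tested and 0 passed an unadjusted p of 0.05. The lowest p was that of Adprh, which takes ADP-ribose off arginine, at 67.6 and 64.3 CPM (edgeR adjusted p = 0.564). The list for hydrolysis of NAD or NADH outside ADP-ribose transfer held members of the Enpp and Nudt families. Whether each of them acts on NAD was not tested. In this list, 1 of 6 genes passed an unadjusted p of 0.05. It was Enpp1, a surface pyrophosphatase, at 7.71 ± 0.992 CPM (SD, n = 4) in controls and 6.25 ± 1.08 CPM (SD, n = 7) in mutators (log2 fold change -0.32, edgeR adjusted p = 0.190).

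**Figure D4:**
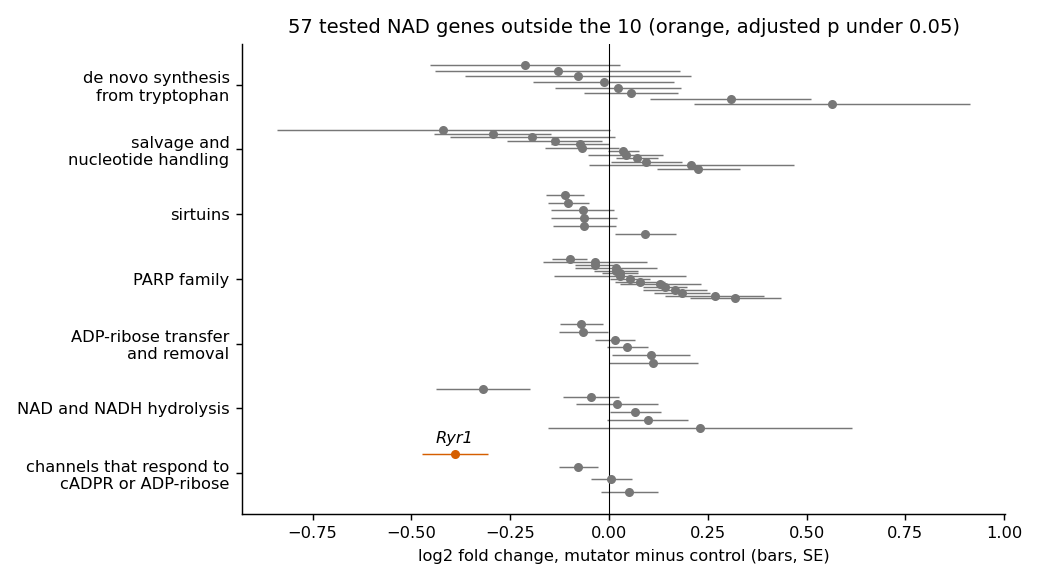
Log2 fold change, mutator minus control, with SE (horizontal axis) for the 57 tested NAD genes outside the members, in 7 lists. Ryr1, at -0.39, is the one gene with an adjusted p under 0.05, and the other points lie on both sides of 0.

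Markers of the cell types that could hold Bst1 or Cd38 RNA were compared in the same libraries. Of the platelet list, 6 of 6 were tested and 2 were called higher, beside 0.439% of all genes, Ppbp (0.0613 and 0.627 CPM, edgeR adjusted p = 0.00483) and Tubb1 (0.00605 and 0.335 CPM, edgeR adjusted p = 0.00483). The summed level of the 6 platelet genes ranged from 3.71 to 5.64 CPM in controls and from 4.86 to 9.42 CPM in mutators, and the most abundant, Itga2b, was not called. DESeq2 called 1 of the 5 it tested, and edgeR with a minimum mean of 1 CPM called 0 of the 2 it retained. Ppbp held at most 65 counts and Tubb1 at most 34 in any library. In controls they ranged from 0.0160 to 0.182 CPM and from 0 to 0.0160 CPM, so they passed the filter on low counts only through the mutators. Of the 6 genes, 5 had positive log2 fold changes and Gp1ba had -0.047. The change of Ppbp and Tubb1 in these samples was known when the list was written, so it is not independent evidence. Of the 8 mural cell genes, 4 had positive and 4 negative log2 fold changes, and 1 was called higher, Abcc9, a subunit of a potassium channel (11.1 and 17.5 CPM, edgeR adjusted p = 0.000433). Their sum ranged from 201 to 220 CPM in controls and from 201 to 239 CPM in mutators, with Rgs5 the most abundant. Acta2, of smooth muscle, had a log2 fold change of -0.53 with edgeR adjusted p of 0.0821, and it is named after its values were seen. With DESeq2, and with edgeR without WT/WT mouse 205, 1 mural gene was called higher and 1 lower.

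The other marker lists held no gene called by edgeR with all mice and the filter on low counts. Without the filter, 2 perivascular macrophage genes were called higher, beside 114 higher and 232 lower of 28103 over all genes. DESeq2 called 2 endothelial and 2 perivascular macrophage genes higher, and 1 astrocyte and 1 oligodendrocyte gene lower. Over all genes DESeq2 called 243 higher and 372 lower of 17202. With single mice left out, edgeR called up to 2 endothelial, 2 perivascular macrophage and 1 neutrophil gene higher, and up to 1 astrocyte, 3 oligodendrocyte and 1 neuronal gene lower. In those fits between 50 and 412 genes were called over the whole table. The 2 endothelial calls came without mutator mouse 248. The 2 perivascular macrophage, 3 oligodendrocyte and 1 astrocyte calls came without mutator mouse 217, with 1 endothelial call. The neuronal call came without WT/WT mouse 205 and the neutrophil call without WT/WT mouse 246. The counts at an unadjusted p below 0.05 that follow stand beside 15.8% of all genes tested. Of the endothelial list, 5 of 12 passed this threshold, 3 with positive values and 2 with negative ones, with a sum of 276 to 349 CPM in controls and 287 to 365 CPM in mutators and Flt1 the most abundant. Of the perivascular macrophage list, 3 of 4 did, all with positive values, and the sum of the 4 ranged from 9.75 to 11.4 CPM in controls and from 10.2 to 16.7 CPM in mutators, with Mrc1 the most abundant. Of the microglial list, 4 of 8 did, all with negative values, with a sum of 313 to 382 CPM in controls and 296 to 359 CPM in mutators and Csf1r the most abundant. Of the neutrophil list, 4 of 7 could be tested and 1 passed, with a sum of 7.43 to 22.8 CPM in controls and 11.2 to 18.3 CPM in mutators and Csf3r the most abundant. Of the B cell list, 2 of 5 found could be tested and 0 passed, with a sum of 4.62 to 6.54 CPM in controls and 4.55 to 6.19 CPM in mutators and Blnk the most abundant. Of the erythroid list, 3 of 5 could be tested and 0 passed, with a sum of 46.4 to 159 CPM in controls and 69.7 to 196 CPM in mutators and Hbb-b1 the most abundant.

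For the main brain cell types, 2 of 7 astrocyte, 3 of 6 oligodendrocyte and 2 of 6 neuronal genes passed an unadjusted p of 0.05, beside 15.8% of all genes, and none was called by edgeR with all mice and the filter. Their sums ranged from 4809 to 5102, from 4854 to 5564 and from 5656 to 6008 CPM in controls. In mutators they ranged from 4537 to 4931, from 4744 to 6667 and from 5471 to 5894 CPM. All the oligodendrocyte genes that passed had negative values, with a list median of -0.21, while the astrocyte and neuronal ones went both ways. Mbp, the most abundant oligodendrocyte gene, had a log2 fold change of 0.13 and did not pass. None of the markers found was at 0 in all 11 mice. The part of any of these cell types in the differences of Bst1, Cd38 and Ryr1 was not tested.

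The genes whose levels followed Bst1 most closely over the 11 mice were Wnt5a (r = 0.94), Cdh19 (r = 0.94), Cbln4 (r = 0.93), Acer2 (r = 0.93) and Gvin1 (r = 0.92), by Pearson's r of log2 CPM. Within the 7 mutators the same genes had r of 0.93, 0.63, 0.63, 0.61 and 0.79. These are descriptions across mice that share a genotype split with Bst1, and a low gene's log2 CPM carries counting noise. Wnt5a, a secreted signalling protein, averaged 10.8 CPM in controls and 13.04 CPM in mutators, and Acer2, an alkaline ceramidase, 8.71 and 23.6 CPM. Of the members, Cd38 came nearest to Bst1, with r = 0.79 over 11 mice and r = 0.60 within the mutators. For Nampt, r was 0.62 over 11 mice and -0.43 within the mutators.

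The use of single exon bins was tested within the members, since a share of a gene's counts does not depend on the level the selection used. The members had 179 bins, of which 113 passed the filter, and no bin of Bst1 did. None of the 113 was called by edgeR's diffSpliceDGE, against 0.0237% of the 206930 bins tested over all genes, and 1 bin, in Nnt, had an unadjusted p below 0.05, as did 1.9% of the bins over all genes. With limma's diffSplice 0 were called and 0 had an unadjusted p below 0.05. With so few bins called over all genes, the count of 0 says nothing particular about the members.

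Nnt showed a gap in its exon counts that was present in each mouse. The gene lies on the minus strand of chromosome 13 (chr13:120124255-120197804) and has 42 bins. Bins 13 to 33, which cover 808 bases of annotated exon, held 0 to 3 counts per bin and mouse, and 70 of the gene's 11454 bin counts, or 0.611%. Summed over the 21 bins, each of the 10 mice had 2 to 14 counts. On either side, the bin upstream in the gene (bin 34, chr13:120170483-120170670) held 15 to 117 counts per mouse and the bin downstream (bin 12, chr13:120163436-120163581) held 11 to 66. This stretch was singled out after its values were seen.

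C57BL/6J, the substrain behind the mouse reference genome, is known to lack several exons of Nnt and to make no functional protein, whereas other C57BL/6 substrains carry the whole gene. Reads from exons that the reference lacks could not have been counted. Bins 13 to 33 have positions in mm9 (chr13:120163582-120170426), so they are not exons missing from it. Which substrain these mice belong to is not given in the sources used here, and it was not tested. In 2 annotated transcripts the exons on either side of the gap are joined directly. The gap thus means only that the annotated bins between them held few counts, and whether the Nnt RNA of these mice is altered was not tested. The joint is shown since it spans the gap. Lower case gives the last 15 bases of the upstream exon (chr13:120170483-120170497) and capitals the first 15 of the downstream exon (chr13:120163567-120163581), both coding, minus strand:
Nnt: cagctctgattccagGTGGTTTTCTGGTGA

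**Figure D5:**
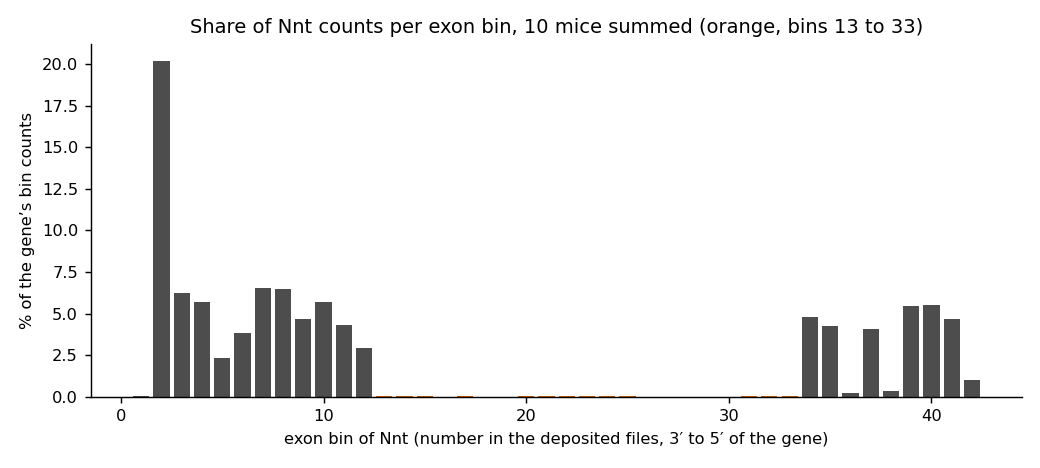
Share of Nnt exon counts (vertical axis, percent of the gene's counts summed over 3 WT/WT mice and 7 mutators) in each of its 42 exon bins. Bins 13 to 33 (orange) hold 0.611% of the counts, while bins 34 and 12 on either side hold 4.80% and 2.93%.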

How the data were processed

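Per the labels and the study's methods, reads of 100 bases were aligned to mm9 with TopHat2 2.0.6 and Bowtie2 and counted on Ensembl genes with HTSeq 0.5.3p9. The authors deposited these as raw counts per gene (11 mice) and per exon bin (10 mice), together with read totals. Their DESeq 1.14.0 and exon tables hold their own comparison and were not used. All per-sample count columns were used. Reads in no bin (20.6% to 23.4%) were left out.

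For genes, 7 mutators were compared with 4 controls by the quasi-likelihood F test of edgeR 4.0.16 under R 4.3.3, with genotype as the only term, after filterByExpr, TMM scaling and a robust glmQLFit, and with Benjamini-Hochberg adjustment over all genes tested and a threshold of 0.05. SEs came from the fold change and the F statistic. Log2 CPM for correlations had a prior count of 2. Exon bins were tested with diffSpliceDGE. The scripts were checked on simulated counts. With 200 genes made to differ, edgeR recovered 195 with 13 false calls and DESeq2 recovered 196 with 28 false calls. With 200 bins made to differ, edgeR recovered 200 with 75 false calls and limma recovered 200 with 47 false calls. False calls thus made up a larger share of the calls than the threshold of 0.05 with each tool, and more so for bins. The genes made to differ were drawn from those above 1 CPM, and the bins from those with high counts. Recovery at the level of Bst1 was therefore not checked. Alternatives were RLE factors, DESeq2 1.42.0, no filter, a mean of at least 1 CPM, limma 3.58.1 for bins, a mean bin count of at least 10, and leaving out each mouse in turn.

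The members and lists were chosen with earlier results of these data known. Named were the members, called NAD genes and the lowest p of each list, the neighbours of Bst1, the 5 genes most like it, and each marker list's most abundant and called genes. Positions, lengths and sequences came from GENCODE M1 on NCBIM37 (mm9), a later release than the authors' annotation. Its bins matched those of all 10 members in number. Art2a, Oard1, Rbfox3 and Ighm were not found by symbol. The rows BC016495 and 1110020G09Rik were taken for Nmrk1 and Nadk2 from older symbols that no table used here lists. P-values weigh the difference between groups against the spread between mice, and the estimate of that spread drew in part on other genes.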

Additional observations from a re-analysis of the deposited data

Results flagged for a closer look

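In 46 groups of mice examined for a value far from the rest, 2 were found. Chance gives about 1 in 20 groups, or 2.3 here, so this number is no more than chance gives. Among the 7 mutators, Nnt in mouse 207 was at 15.8 CPM against 19.6 to 22.04 CPM in the other 6, a gap of 0.611 of the group's range. Without mouse 207 the log2 fold change of Nnt was -0.058, against -0.11 with it, and without the WT/D257A control it was -0.044. Mutator mouse 248 had 3.00 gene counts per aligned read listed, against 0.744 to 0.772 in the other mutators, a gap of 0.988 of the range.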

How the results depend on the processing

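The number of genes called over the whole table moved from 223 to 615 with DESeq2 and to 346 without a filter on low counts, and from 50 to 412 over the mice left out in turn, the lowest without the WT/D257A control and the highest without WT/WT mouse 205. The cause was not tested. The count of called NAD genes outside the members was 0 to 1 over the mice left out. Bst1 kept its direction under each alternative that retained it, with log2 fold changes from 1.43 to 1.80, and its mean fell below the minimum of 1 CPM, so that filter gave no value. Ryr1 kept its direction, from -0.44 to -0.28, with edgeR and DESeq2 adjusted p from 0.00167 to 0.150. Prom1 also kept its direction, from 0.34 to 0.43, with adjusted p from 0.00157 to 0.0853. Cc2d2a turned from 0.018 to -0.0012 without mutator mouse 248 and lay between -0.0012 and 0.049 over the mice left out. Nadk, at -0.0073 with all mice, lay between -0.023 and 0.015, with a positive sign without the WT/D257A control, WT/WT mouse 246, mutator mouse 207 or mutator mouse 248. Exon bins called in the members stayed at 0 in 12 alternatives, while the count over all genes ranged from 5 to 186. Bst1 rests on 5 to 33 counts per control library, which limits its precision. No paired analysis was possible because the mouse numbers do not pair samples across genotypes.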
